A study of Homo sapiens with 16 samples.

Results

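The loci of CCN1 (CYR61), CCN2 (CTGF), AMOTL2, F3 and ANKRD1, target genes of the coactivator YAP and its TEAD partner factors, were examined for MED1 occupancy in HCT116, a line derived from a human colorectal carcinoma. Peaks were chosen by position alone. A peak counted where any base of it lay in a fixed hg19 window around the gene, which ran from 86.0 to 86.1 Mb on chromosome 1 for CCN1 and from 132.22 to 132.32 Mb on chromosome 6 for CCN2. The windows were 134.02 to 134.14 Mb on chromosome 3 for AMOTL2, 94.94 to 95.06 Mb on chromosome 1 for F3 and 92.62 to 92.73 Mb on chromosome 10 for ANKRD1. Of the 3464 MED1 peaks in the 6 deposited lists, 2 lay in these 5 windows. The F3 window held 1 peak, in unmodified (WT) cells given DMSO, and the AMOTL2 window held 1, in WT cells given Nutlin-3a. The windows of CCN1, CCN2 and ANKRD1 held 0 peaks in each of the 6 lists, and no window held a peak in any list of the MED14-AID line.

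YAP is the effector of the Hippo pathway, whose LATS kinases phosphorylate it and keep it out of the nucleus. Nuclear YAP does not bind DNA itself and is brought to enhancers and promoters by TEAD factors, often together with AP-1. Mediator, of which MED1 is a subunit, links factors bound at enhancers to RNA polymerase II. CCN1 and CCN2 encode secreted matrix-associated signalling proteins, AMOTL2 a junctional scaffold of the angiomotin family that binds and restrains YAP, F3 the coagulation receptor tissue factor, and ANKRD1 an ankyrin repeat cofactor best known from muscle. Binding of YAP or TEAD and the RNA of these genes were not measured in these samples.

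The 16 samples were 8 MED1 libraries and 8 inputs. MED14-AID cells are CRISPR/Cas9 edited HCT116 cells of genotype OsTir1+/-;Med14-AID+/+, in which auxin (IAA) drives degradation of the tagged Mediator subunit MED14 through the plant protein OsTir1. They received 500 µM auxin for 3 h followed by Nutlin-3a for 1 h, auxin alone, water followed by Nutlin-3a, or water alone, with 1 MED1 library each. All of these groups, water included, carry the tag and OsTir1, and the labels do not say whether the line is 1 clone. WT cells received Nutlin-3a, which frees p53 from MDM2, or DMSO for 1 h, with 2 MED1 libraries behind 1 joint list each. Each condition thus has 1 list and no measured spread, so conditions are described side by side without a test. The MED14-AID lists held 66 peaks with auxin and Nutlin-3a, 53 with auxin, 522 with water and Nutlin-3a and 463 with water, and the WT lists 1254 with Nutlin-3a and 1106 with DMSO. They give no read totals, so the depth is unknown.

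Sequence upstream of these genes was searched for letters used here as TEAD and AP-1 motifs. It is shown to mark which of the loci without a peak hold such letters next to the gene start. The sequences are the 250 bases before a RefSeq start (GRCh38.p14, all on the minus strand, 5′ to 3′ along the gene). Capitals mark GGAATG or its reverse complement CATTCC, the core TEAD motif, and TGANTCA, used as a loose AP-1 motif. N stands for any base, and as a pattern TGANTCA reads the same on both strands. AP-1 was added after the sequences had been seen.
CCN2, chr6:131951373-131951622: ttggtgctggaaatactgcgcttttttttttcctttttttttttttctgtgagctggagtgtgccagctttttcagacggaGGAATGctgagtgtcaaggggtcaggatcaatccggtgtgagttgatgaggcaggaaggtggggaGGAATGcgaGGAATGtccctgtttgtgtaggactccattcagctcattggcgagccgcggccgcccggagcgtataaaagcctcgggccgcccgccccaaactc
ANKRD1, chr10:90921088-90921337: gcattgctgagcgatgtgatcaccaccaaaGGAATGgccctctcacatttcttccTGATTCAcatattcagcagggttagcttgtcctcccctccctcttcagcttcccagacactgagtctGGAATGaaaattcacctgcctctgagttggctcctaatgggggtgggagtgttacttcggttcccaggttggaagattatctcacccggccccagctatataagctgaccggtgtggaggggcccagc
AMOTL2, second listed start, chr3:134374448-134374697: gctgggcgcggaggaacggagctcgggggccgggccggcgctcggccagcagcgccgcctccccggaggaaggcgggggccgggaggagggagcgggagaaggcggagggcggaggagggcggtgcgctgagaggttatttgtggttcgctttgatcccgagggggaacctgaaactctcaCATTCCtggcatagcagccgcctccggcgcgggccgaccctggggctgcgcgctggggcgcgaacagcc
F3, chr1:94541760-94542009: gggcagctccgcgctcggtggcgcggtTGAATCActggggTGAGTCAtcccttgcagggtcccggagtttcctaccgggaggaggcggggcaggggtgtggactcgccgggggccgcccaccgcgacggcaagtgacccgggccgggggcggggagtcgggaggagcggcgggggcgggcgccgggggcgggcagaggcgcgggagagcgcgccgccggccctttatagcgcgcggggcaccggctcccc
These coordinates are of another build than the peaks and cannot be set against peak positions.

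Of the 5 genes, 4 had an entry in the promoter table, with 2 starts for AMOTL2, and CCN1 had none. CCN2 held 3 TEAD matches, which began 169, 104 and 95 bases before the start. ANKRD1 held 2 TEAD matches, at 220 and 128 bases, and 1 AP-1 match at 195 bases. AMOTL2 held 1 TEAD match, 69 bases before its second listed start, and the 250 bases before its other start held neither motif. F3 held no TEAD match and 2 AP-1 matches, at 223 and 210 bases. No match overlapped another. Among 35116 RefSeq promoter windows of the same length, 11.9% held at least 1 TEAD match, 0.928% at least 2 and 0.0797% at least 3, and 6.57% held at least 1 AP-1 match and 0.402% at least 2. The genes were chosen as targets of YAP and TEAD, so TEAD matches above these shares are no independent finding. Of the 4 genes with an entry, CCN2 and ANKRD1 had the most TEAD matches. Both were among the 3 genes whose windows held no listed MED1 peak, and the third, CCN1, had no entry. A relation between matches and peaks was not tested. A match is a string of letters and not a measured binding site.

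AMOTL2 carried the only peak of the windows under Nutlin-3a. In WT cells with Nutlin-3a this peak spanned 134092823 to 134093417 on chromosome 3, 595 bp wide, with its summit at 134093088. The authors' fold enrichment, a ratio of signal over background given by their peak caller, was 3.23, and the −log10 q was 7.46. Both values lay under the medians of that list, which were 3.41 and 11.4. A higher fold was listed for 58.6% of the 1254 peaks and a higher −log10 q for 71.8%. The WT DMSO list held no peak in the AMOTL2 window, and its nearest one lay on the same chromosome 1.84 Mb from the window's middle.

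F3 carried the only peak of the windows under DMSO. In WT cells with DMSO it spanned 95006785 to 95007284 on chromosome 1, 500 bp wide, with its summit at 95006957. Its fold was 2.91 and its −log10 q 6.56, again under the list's medians of 3.19 and 9.34. A higher fold was listed for 62.7% of the 1106 peaks and a higher −log10 q for 67.8%. Its width was the narrowest of the list, shared by 28 of the 1106 peaks. Whether either peak covers a start site was not determined, since gene positions were given on GRCh38 only.

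**Figure D1:**
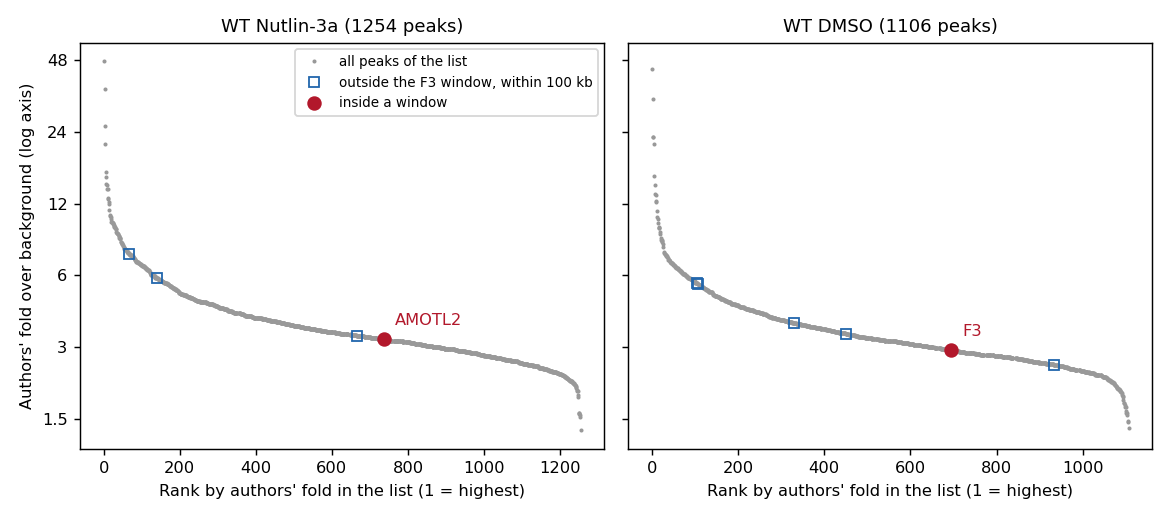
Authors' fold enrichment over background (log axis) of every peak against its rank in the list, for WT cells with Nutlin-3a (left) and with DMSO (right). Filled circles are the peaks inside a window, AMOTL2 at rank 736 of 1254 and F3 at rank 695 of 1106, both in the lower part of the curve, and open squares are the peaks outside the F3 window and within 100 kb of it.

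To see whether p53 induction went with MED1 at these loci in WT cells, a peak was counted as shared between the Nutlin-3a and DMSO lists where it overlapped a peak of the other by 1 bp or more. The AMOTL2 peak was absent from the DMSO list, 1 of 1 window peaks with Nutlin-3a, where 35.0% of all Nutlin-3a peaks were absent from it. The F3 peak was absent from the Nutlin-3a list, 1 of 1 window peaks with DMSO, where 26.5% of all DMSO peaks were. Among peaks under the median −log10 q of their own list, where both of these lie, the absent shares were 57.4% with Nutlin-3a and 46.3% with DMSO. Neither peak was in any other list, as was the case for 30.6% of the Nutlin-3a list and 25.2% of the DMSO list of WT cells. Absence from the other WT list was thus common among peaks under the median. The share of single-list peaks among them was not determined. With 1 peak per condition, there is no direction of change for these genes.

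Across the 2 lines, the AMOTL2 peak was absent from the MED14-AID list with water and Nutlin-3a, as were 66.8% of all WT Nutlin-3a peaks. The F3 peak was absent from the MED14-AID list with water, as were 66.7% of all WT DMSO peaks. The MED14-AID water lists come from 1 library each, of cells given water for 3 h and, per the labels, no DMSO. The WT lists come from 2 libraries each, of cells without the water step. These differences cannot be told apart from that of the line. The water lists held no window peak, so nothing was listed in the windows that auxin could have removed. MED1 peaks were sparse everywhere. Of adjacent 110 kb tiles laid from the first to the last peak of each chromosome, 0.435% held a MED14-AID peak with auxin and Nutlin-3a, 0.426% with auxin, 1.33% with water and Nutlin-3a and 1.13% with water. In WT cells 2.77% held a Nutlin-3a peak and 2.64% a DMSO peak. Beside these shares, 0 of the 5 windows held a peak in each MED14-AID list and 1 of 5 in each WT list. The lowest −log10 q in a list lay between 1.58 and 2.76, so MED1 signal under those limits could be present at CCN1, CCN2 and ANKRD1 and is not seen.

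For CCN1, CCN2 and ANKRD1, the nearest listed peak was at least 0.688 Mb from the window's middle in every list. In the MED14-AID line, CCN1 lay 1.22 Mb from the nearest peak with water and Nutlin-3a, the one at 84831237 to 84832332, and 9.02 Mb with water alone. In WT cells it lay 1.15 Mb from a peak with Nutlin-3a and 1.22 Mb with DMSO, both on its lower-coordinate side. The nearest DMSO peak, 84831099 to 84832354, overlaps that of water and Nutlin-3a. For comparison, a grid of positions every 10 kb was laid from the first to the last summit of each chromosome with peaks. The grid leaves out chromosome ends and chromosomes without peaks. Its median distance to a summit was 5.52 Mb in the MED14-AID list with water and Nutlin-3a and 6.41 Mb with water. It was 2.59 Mb in the WT Nutlin-3a list and 2.60 Mb in the WT DMSO list.

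CCN2 lay 2.45 Mb from the nearest MED14-AID peak both with water and Nutlin-3a and with water alone. In WT cells the nearest peak was 2.20 Mb away on its lower side with Nutlin-3a and 0.866 Mb away on its higher side with DMSO. ANKRD1 lay 0.994 Mb from the nearest MED14-AID peak with water and Nutlin-3a and 2.55 Mb with water. Both WT lists had its nearest peak at the same position on chromosome 10, 0.688 Mb away, from 91986872 to 91987388 with Nutlin-3a (fold 2.52) and from 91986802 to 91987344 with DMSO (fold 3.48). In both WT lists each of these 3 windows was nearer to a peak than the median grid position of that list.

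Under auxin, with 66 and 53 peaks in the lists, the nearest peaks were farther still, and so were those of other positions. On the same grid the median distance was 16.4 Mb with auxin and Nutlin-3a and 17.0 Mb with auxin alone. With so few peaks, much of the genome lies outside this grid, so these medians do not describe whole chromosomes. For CCN1, CCN2 and ANKRD1 the distances were 56.5, 19.4 and 32.0 Mb with auxin and Nutlin-3a, and 56.5, 26.9 and 32.0 Mb with auxin alone. AMOTL2 lay 58.4 Mb from a peak with auxin and Nutlin-3a and 87.1 Mb with auxin alone, against 4.94 Mb with water and Nutlin-3a and 4.94 Mb with water. F3 lay 47.5 Mb from a peak in both auxin lists, against 88.4 kb with water and Nutlin-3a and 71.6 kb with water. In each auxin list CCN1 and F3 had the same nearest peak. Its fold was 1.66 with auxin and Nutlin-3a and 1.74 with auxin alone, where the lowest folds listed were 1.66 and 1.72. For AMOTL2 the fold of the nearest peak was 2.49 with auxin and Nutlin-3a and 7.57 with auxin alone.

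**Figure D2:**
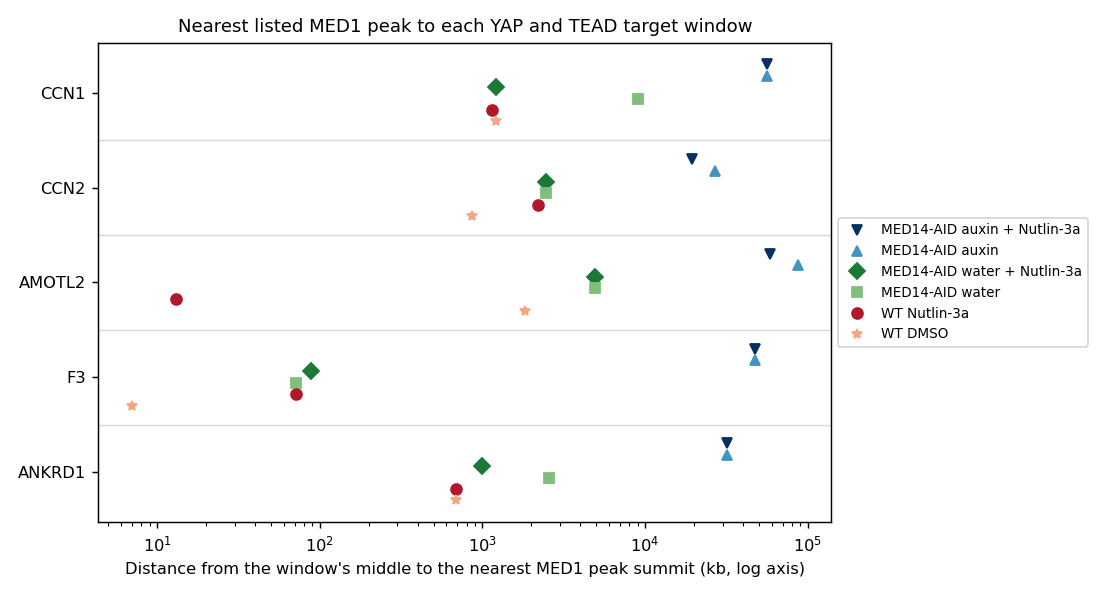
Distance in kb (log axis) from the middle of each window to the nearest MED1 peak summit, 1 marker per list. F3 is the locus with a peak within 100 kb in all 4 lists without auxin, AMOTL2 has one only with Nutlin-3a in WT cells, and the nearest peaks to CCN1, CCN2 and ANKRD1 lie between 0.688 Mb and 9.02 Mb away in the lists without auxin.

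F3 was the locus with repeated MED1 peaks close by. Just past the higher-coordinate edge of its window lay 4 merged regions within 100 kb, a distance chosen after the positions had been seen, and the other windows had no peak within that distance outside them. F3 is on the minus strand, so this is the side upstream of its start. The next protein-coding gene on that side, in the GRCh38 gene order, is SLC44A3, with 7 noncoding genes and pseudogenes between. To which gene the regions belong was not determined, and they are no members of the F3 window.

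The farthest of them, from 95111157 to 95112895, was listed in every list without auxin. In the MED14-AID line it had, with water followed by Nutlin-3a, a fold of 7.82 and −log10 q of 33.2, and with water alone 6.59 and 29.3. In WT cells it had a fold of 7.36 and −log10 q of 56.6 with Nutlin-3a, and 5.51 and 38.3 with DMSO. Its summits were 95112052 with water and Nutlin-3a, 95112064 with water, 95112096 with WT Nutlin-3a and 95112099 with WT DMSO, a spread of 47 bp. That spread covers all 4 lists, whereas the values over all shared peaks are medians for pairs of lists. Within a line, the median distance between summits was 79 bp for WT Nutlin-3a against WT DMSO and 109 bp for water and Nutlin-3a against water. Across the lines it was 99 bp for water and Nutlin-3a against WT Nutlin-3a and 107.5 bp for water against WT DMSO. The region ranked 40 of 522 with water and Nutlin-3a, 63 of 463 with water, 67 of 1254 with WT Nutlin-3a and 107 of 1106 with WT DMSO by fold. Its width was 1137 bp with water and Nutlin-3a, 1018 bp with water, 1739 bp with WT Nutlin-3a and 1218 bp with WT DMSO. These folds come from lists of different length and unknown depth, so their differences show no change.

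The region from 95086282 to 95089987 was listed in the MED14-AID line with water and Nutlin-3a, as a peak of fold 5.92 and 1315 bp with its summit at 95088378, and not with water alone. In WT cells it was 1 peak of 3668 bp with Nutlin-3a and 2 peaks, of 1219 and 1513 bp, with DMSO. The Nutlin-3a peak had a fold of 5.85 and its summit at 95088457. With DMSO the folds were 3.78 and 5.55, and the summit of the stronger peak was at 95088471.

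The region nearest the F3 window began 11.0 kb past its edge in the WT Nutlin-3a list. In the MED14-AID line it was missing after water and Nutlin-3a and was listed with water alone (fold 3.88, −log10 q 5.69, 567 bp), the opposite of the region just described. In WT cells it had a fold of 3.35 with Nutlin-3a and 3.42 with DMSO. Its summit with water, 95071583, was the same base as with WT Nutlin-3a, against 95071464 with WT DMSO. The weakest region, 95082885 to 95083888, was in the WT DMSO list alone (fold 2.53, −log10 q 4.00).

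Within 100 kb of the F3 window, and outside it, 0 of 3 WT Nutlin-3a peaks were absent from the DMSO list, beside 35.0% of all WT Nutlin-3a peaks, and 1 of 5 DMSO peaks was absent from the Nutlin-3a list, beside 26.5% of all WT DMSO peaks. In MED14-AID cells, 1 of 2 peaks with water and Nutlin-3a was absent with water alone, where 31.2% of that list was, and 1 of 2 with water was absent with Nutlin-3a, where 22.5% was. Of the peaks with water and Nutlin-3a, 0 of 2 were absent from the WT Nutlin-3a list, where 13.2% of their whole list was, and 0 of 2 with water from the WT DMSO list, where 14.9% was. None was kept under auxin. That was 0 of 2 with auxin and Nutlin-3a, where 91.0% of the list with water and Nutlin-3a was lost, and 0 of 2 with auxin alone, where 90.5% of the water list was lost. With 2 to 5 peaks in each comparison, these counts are too small to be told apart from the shares of the whole lists.

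**Figure D3:**
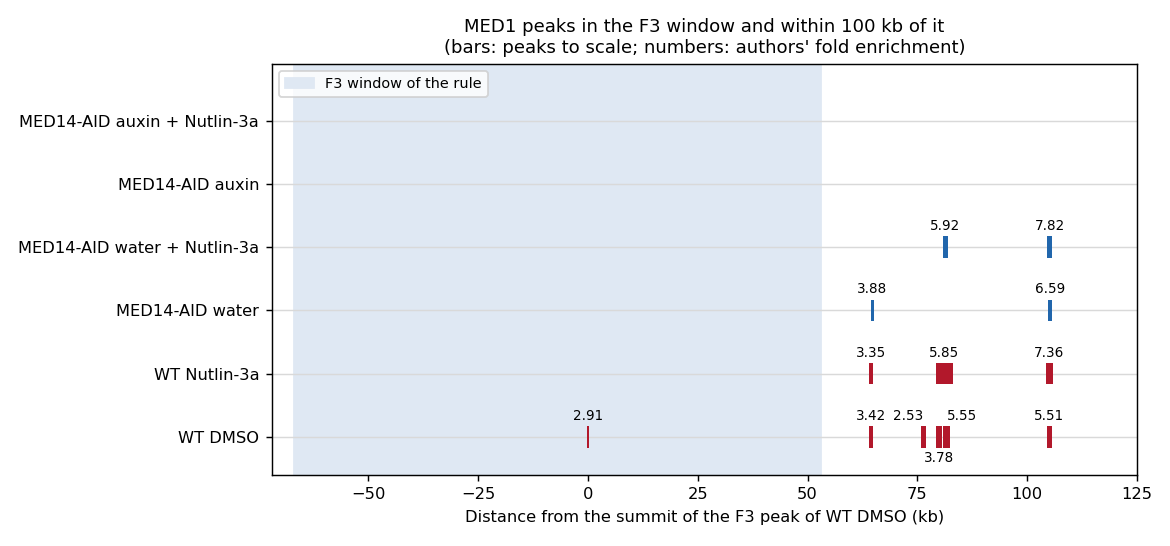
MED1 peaks in the F3 window (shaded) and within 100 kb of it, as distance in kb from the summit of the F3 peak of WT DMSO cells, with 1 row per list. Bars are peaks drawn to scale and numbers are the authors' fold, with 2.91 for the only peak inside the window, 5.51 to 7.82 for the region listed in all 4 lists without auxin, and no peak in the rows with auxin.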

How the data were processed

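The submitters' processing notes name Bowtie 0.12.9, MACS2 2.1.2 and the build hg19 for the MED1 ChIP-seq, without settings. The deposited fold enrichment is a ratio over background from the authors' caller, and the deposited −log10 values used are those of each peak's q. The deposited column of summit offsets, a distance in bp from the peak start, gave the summits. Per the labels, both MED1 replicates of a WT condition share 1 list, and a MED14-AID list comes from a single library. Depth is not given.

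The members and lists were chosen with earlier results of these data known. Windows were taken as given and every peak in them is named. Sharing 1 bp or more counted as overlap, and positions are hg19 and 1-based. Overlap counts were checked against bedtools 2.31.1, with 0 of 30 pairs of lists different, and on simulated copies of peaks. Distances run from a window's middle to a summit. Promoter sequences are RefSeq's (GRCh38.p14). A planned list of other pathway genes needs gene positions on hg19 and is not analysed here. Alternatives were windows wider by 50 kb, −log10 q of at least 10, overlap of 50% of both peaks, a gap of 1 kb and rank by −log10 q. Windows wider by 100 kb were added after the data were seen. Calculations used Python 3.11.15 with pandas 2.3.3 and numpy 2.4.6, and figures matplotlib 3.10.9.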

Additional observations from a re-analysis of the deposited data

How the results depend on the processing

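With −log10 q of at least 10, the windows held 0 peaks in both WT lists, so the counts absent from the other WT list or from the matching MED14-AID list were 0 too. With windows 50 kb wider, the peaks were 1 with water and Nutlin-3a, 1 with water, 3 with WT Nutlin-3a and 5 with WT DMSO. Widening them by 100 kb, added later, gave 2, 2, 4 and 6. With 50 kb more, 2 of 5 WT DMSO peaks were absent from the WT Nutlin-3a list, and 2 of 6 with 100 kb more, beside 26.5% of the whole list. For each water list against the other it was 1 of 1 and 1 of 2, beside 31.2% with Nutlin-3a and 22.5% without. For WT Nutlin-3a against water with Nutlin-3a it was 2 of 3 and 2 of 4, beside 66.8%. For WT DMSO against water it was 4 of 5 and 4 of 6, beside 66.7%. These counts are too small to be told apart from the shares. By −log10 q, 67.8% of the WT DMSO list stood above the F3 peak, against 62.7% by fold, and 71.8% of the WT Nutlin-3a list above the AMOTL2 peak, against 58.6%. The other 54 values, those under 50% overlap and a 1 kb gap included, equalled the first value as counts. Wider windows changed some of the totals behind them. For WT Nutlin-3a peaks absent from the WT DMSO list, 1 of 1 became 1 of 3 with 50 kb more. With 100 kb more it was 1 of 4, beside 35.0% of the whole list. Most of the 54 values were 0 under both settings, largely in lists without a window peak, so they had little room to move. A 50% overlap could not change peaks that shared no base, and no peak of a compared list lay within 1 kb of either window peak. These equal values are thus no sign of robustness. Every peak added by the wider windows lay beside F3. No paired analysis was possible because each WT condition has 1 joint list for its replicates, and for the same reason no replicate could be left out. Depth is unknown, and it limits which weak peaks were listed.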
